A study of Mus musculus with 4 samples.

Results

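The transcripts described here are those of 41 mouse genes that regulate or mark the early germ layers. They were taken by symbol from a fixed list, and all 41 were found among the 47633 genes of the table. The list held 12 primitive streak genes, 14 mesoderm genes, 9 endoderm genes, 4 blood genes and 2 heart genes. Libraries were made from total RNA of mouse embryonic stem (ES) cells of strain 129S2/SvPas and of cells derived from them. ES cells were grown on mitomycin C-treated embryonic fibroblasts of C57/BL6 mice in serum with leukaemia inhibitory factor (LIF), a cytokine that holds them undifferentiated. The 4 libraries were ES 1 and ES 2, 1 library from a culture deprived of LIF for 2 days, and 1 that the label calls embryoid body, a ball of differentiating cells, grown 5 days without LIF and named the 5-day library from here on. The labels name no genetic change in any group. The labels do not say whether fibroblasts were removed before RNA was taken, nor whether ES 1 and ES 2 are different cultures, and p-values reflect no more than the spread of these samples, possibly a technical one.

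During gastrulation, epiblast cells move through the primitive streak, where WNT, NODAL and FGF signals switch on T-box and homeobox factors such as T (brachyury), Mixl1 and Gsc. Cells that leave the streak form mesoderm, which gives rise to blood, vessels, heart and connective tissue, or definitive endoderm. GATA and SOX17-group factors also mark the extraembryonic endoderm. In ES cells many promoters of such regulators are known to be CpG-rich and held at a low level by Polycomb proteins.

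Values were FPKM, fragments per kilobase of gene model scaled to library depth. In genes with a single annotated transcript, low FPKM values fell on whole multiples of what 1 fragment is worth, which put the depth of ES 1 at 33.7 M fragments, ES 2 at 28.4 M, LIF withdrawal at 19.4 M and the 5-day library at 28.3 M. A floor of 3 fragments per library then lay between 0.00754 and 0.250 FPKM, depending on gene length and library. Floors and intervals cover counting error only. The ES libraries had r = 0.956 for log2(FPKM + 1) over the 15676 genes that reached 1 FPKM somewhere, where genes are no independent replicates. Each of 10 pluripotency markers was at 1 FPKM or more in every library, and they summed to 2406 and 2400 FPKM in the ES libraries, 2512 after LIF withdrawal and 2861 in the 5-day library. Dppa5a, the highest of the 10, was at 561 and 577 FPKM in ES 1 and ES 2, 805 after LIF withdrawal and 1136 in the 5-day library. Lin28a was at 76.2, 77.3, 48.1 and 32.1 FPKM in the same order. Of the 10, 3 lay above and 6 below both ES libraries after LIF withdrawal, beside 48.4% and 36.6% of the 15676 genes. In the 5-day library 5 lay above and 5 below, beside 37.6% and 42.9%. By limma 0 of the 10 were called in either derived library, beside 7.67% and 0.396% of those genes. Of the genes called, 680 of 1203 and 60 of 62 were listed at 0 in both ES libraries, unlike any of the 10. At unadjusted p under 0.05 stood 4 after LIF withdrawal, beside 37.2%, and 7 in the 5-day library, beside 27.7%. The LIF withdrawal library stood apart, as its 10 highest genes held 44.7% of its summed FPKM against 9.80% to 17.4% in the others. It is the only library of its group, so no comparison could be made without it. Rescaling the libraries by the median ratio of their genes gave it a factor of 1.01. Limma calls after LIF withdrawal then numbered 1201 over all genes, against 1203 unscaled. The part of this concentration in few genes in the differences was not otherwise tested. In a mixed culture, fewer cells of a type and less RNA per cell cannot be told apart.

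The lineage regulators were low in all 4 libraries. ES 1 held 7 of 41 (17.1%) at 1 FPKM or more, ES 2 held 5 (12.2%), LIF withdrawal 7 (17.1%) and the 5-day library 6 (14.6%). The shares were 27.6%, 26.9%, 29.9% and 28.1% of all genes of the table, and 52.4%, 52.5%, 54.8% and 53.2% of 21618 protein-coding genes. Only Kdr, Tbx20 and Runx1 were at 1 FPKM or more in all 4 libraries, and 29 of the 41 reached it in none. The highest value of any of the 41 genes was 3.96 FPKM, for Runx1 after LIF withdrawal.

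Low did not mean undetected. Genes at or under the floor of 3 fragments, those listed at 0 included, numbered 9, 11, 8 and 10 in ES 1, ES 2, LIF withdrawal and the 5-day library. These are 22.0%, 26.8%, 19.5% and 24.4% of the list, beside 29.8%, 30.3%, 29.1% and 28.9% of protein-coding genes. Of the 41, 26 were above the floor in every library. Mesp1, Cer1, Ttr and Nkx2-5 were at or under the floor in all 4 libraries. No gene was listed at 0 in all 4, and 10 were listed at 0 in at least 1.

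**Figure D1:**
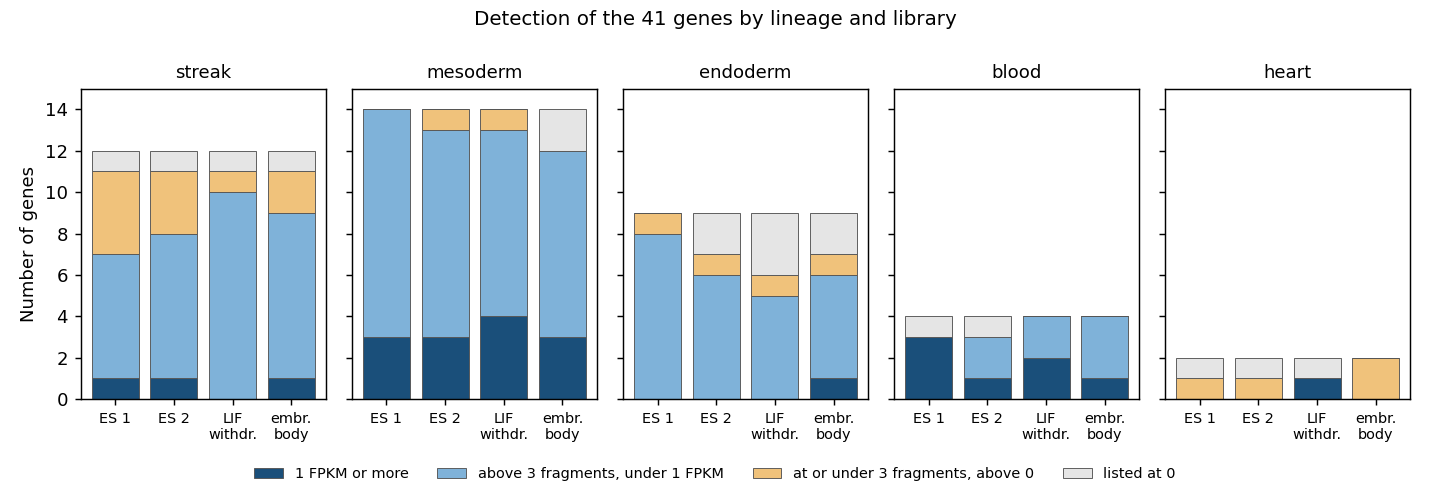
Number of genes of each lineage (y axis) in each library (x axis) by detection class: 1 FPKM or more, above 3 fragments but under 1 FPKM, at or under 3 fragments but above 0, and listed at 0. Most genes lie in the class between the floor and 1 FPKM, with 25, 25, 26 and 25 of 41 in the 4 libraries.

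**Figure D2:**
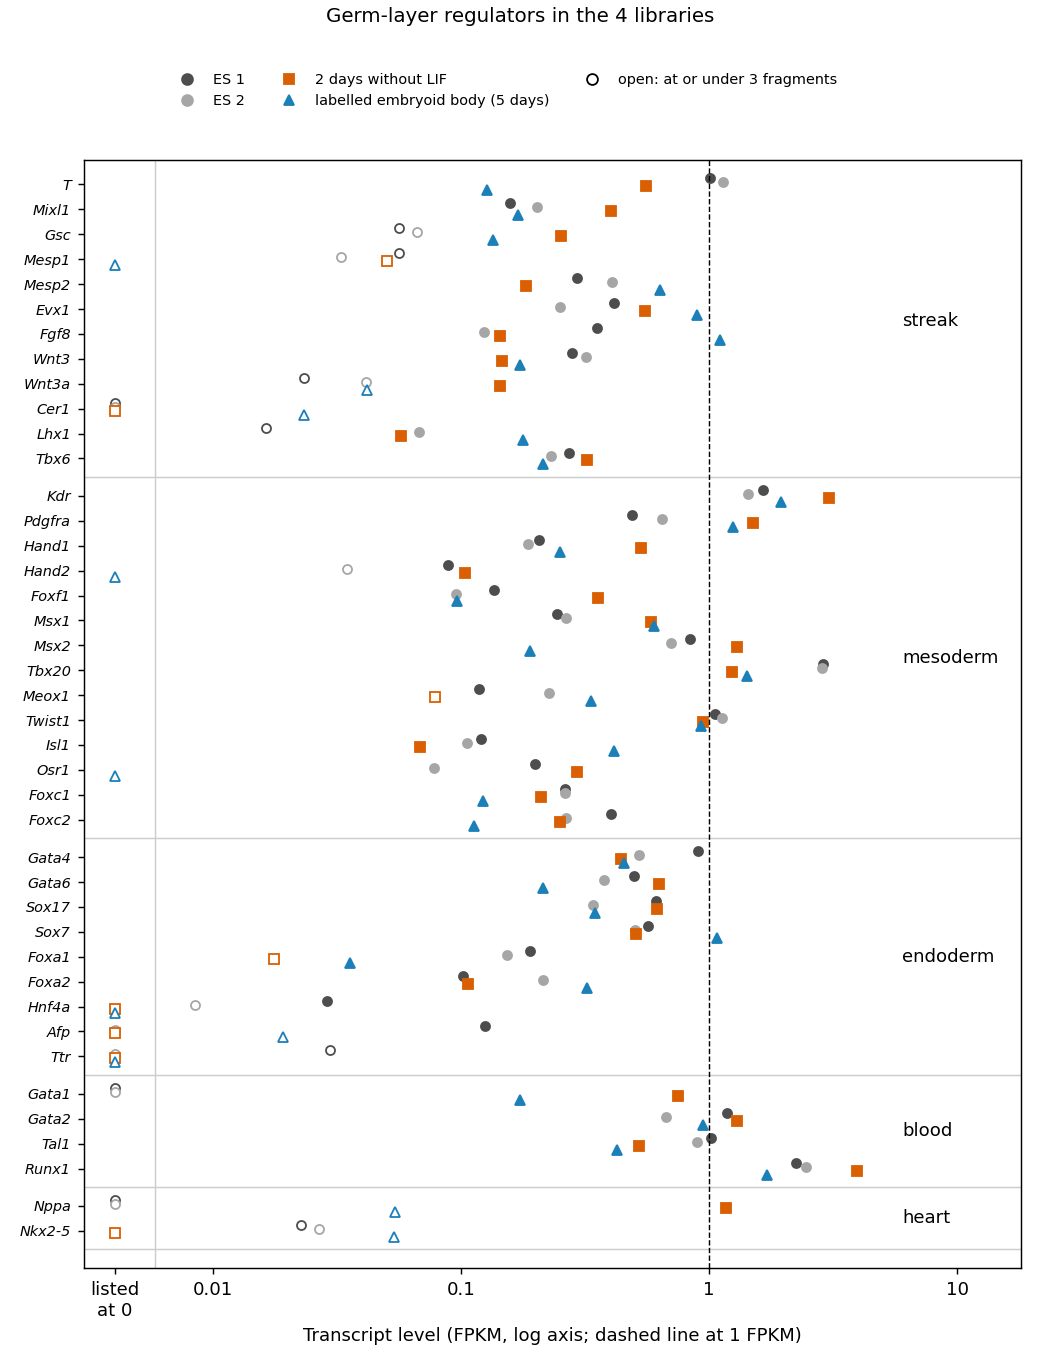
Level of each of the 41 genes in FPKM on a log axis, with 1 symbol per library (circles for the ES libraries, squares for LIF withdrawal, triangles for the 5-day library). Open symbols are at or under 3 fragments, values of 0 stand at the left edge, and the dashed line marks 1 FPKM, which 12 genes reach in at least 1 library.

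Among the primitive streak genes, T and Fgf8 were the members that reached 1 FPKM anywhere. T, a T-box factor needed for mesoderm formation, was at 1.00 and 1.14 FPKM in ES 1 and ES 2, at 0.558 after LIF withdrawal and at 0.127 in the 5-day library. Both derived libraries were thus below both ES libraries, and the 5-day library was 7.88-fold under ES 1 and 8.93-fold under ES 2, at an estimated 7.58 fragments. The log2(FPKM + 1) difference from ES cells was -0.88 (SE 0.06, limma adjusted p = 0.139), short of the threshold of 1 and of the adjusted p of 0.05. Adding 1 to values this low compresses the difference, which was -2.36 with 0.1 added (limma adjusted p = 0.143). T lies on chromosome 17 from 8434423 to 8442496 on the plus strand of mm10. Fgf8, a growth factor made by streak cells, was at 0.353, 0.124, 0.144 and 1.10 FPKM in the same order of libraries. The 5-day library was 3.12-fold above ES 1 and 8.89-fold above ES 2, which themselves stood 2-fold or more apart (log2(FPKM + 1) difference 0.77, SE 0.17, limma adjusted p = 0.191).

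The other 10 streak genes stayed under 1 FPKM. Evx1, a homeobox gene of the posterior streak, was at 0.412, 0.250, 0.549 and 0.890 FPKM, so its highest value was in the 5-day library, 2.16-fold over ES 1. Mesp2, a bHLH factor of segmenting mesoderm, was at 0.292, 0.404, 0.182 and 0.632 FPKM, which are 17, 20, 6 and 31 fragments. Its neighbour and relative Mesp1, a marker of early cardiac mesoderm, was at 2, 1, 1 and 0 fragments, all under the floor. The adjacent pair therefore differed in detection within each library.

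Mixl1, a homeobox factor of mesendoderm, was highest after LIF withdrawal, at 0.403 FPKM against 0.157, 0.202 and 0.170 in ES 1, ES 2 and the 5-day library. In fragments these were 16, 11, 12 and 10. Gsc, a homeobox gene of the organizer, had 2 fragments in each ES library, 5 after LIF withdrawal and 4 in the 5-day library, so only the derived libraries were above its floor. Wnt3a, a WNT ligand of the later streak, had 2, 3, 7 and 3 fragments in ES 1, ES 2, LIF withdrawal and the 5-day library and was above the floor only after LIF withdrawal. Wnt3, the ligand needed to start the streak, went the other way, with 27 and 26 fragments in the ES libraries, 8 after LIF withdrawal and 14 in the 5-day library. Its levels were 0.280, 0.318, 0.146 and 0.173 FPKM, with both derived libraries below both ES libraries. Exact 95% Poisson intervals were 0.185 to 0.408, 0.208 to 0.466, 0.063 to 0.287 and 0.094 to 0.289 FPKM. Those of both derived libraries thus overlapped those of both ES libraries. For Mixl1 and Wnt3a the interval after LIF withdrawal also overlapped those of both ES libraries. The directions of these genes were therefore not resolved beyond counting error.

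Lhx1, a LIM homeobox gene of anterior mesendoderm, was at 0.0163, 0.0677, 0.0573 and 0.177 FPKM in ES 1, ES 2, LIF withdrawal and the 5-day library, under its floor in ES 1 alone. Tbx6, a T-box factor of paraxial mesoderm, varied least among them, from 0.214 to 0.322 FPKM. Cer1, a secreted NODAL and WNT antagonist of anterior endoderm, was listed at 0 in 3 libraries and had 1 fragment in the 5-day library.

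Of the 14 mesoderm genes, 3 were at 1 FPKM or more in each ES library, 4 after LIF withdrawal and 3 in the 5-day library. Tbx20, a T-box factor of heart and extraembryonic mesoderm, was at 2.89 and 2.84 FPKM in ES 1 and ES 2, 1.23 after LIF withdrawal and 1.42 in the 5-day library. The ES libraries were nearly equal, and both derived libraries lay below them. After LIF withdrawal it was 2.34-fold and 2.31-fold under the ES libraries, with a log2(FPKM + 1) difference of -0.79 (SE 0.04, limma adjusted p = 0.0452), so it passed on p and missed the size threshold. With 0.1 in place of 1 added to FPKM the reverse held, with a difference of -1.15 (limma adjusted p = 0.0791). Over the alternatives its limma adjusted p ran from 0.0244 to 0.0791. In the 5-day library the difference was -0.67 (limma adjusted p = 0.139). Tbx20 lies on chromosome 9 from 24718138 to 24774303 on the minus strand.

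Kdr, the VEGF receptor that marks progenitors of vessels and blood, was at 1.65, 1.43, 3.04 and 1.95 FPKM in ES 1, ES 2, LIF withdrawal and the 5-day library. LIF withdrawal was highest, and the libraries of both derived cultures lay above both ES libraries (log2(FPKM + 1) differences 0.67 and 0.21, limma adjusted p = 0.0967 and 0.309). Pdgfra, a growth factor receptor of mesoderm, fibroblasts and primitive endoderm, was at 0.490, 0.643, 1.51 and 1.25 FPKM in the same order. Both derived libraries were above both ES libraries, by 3.07-fold and 2.34-fold after LIF withdrawal and by 2.55-fold and 1.95-fold in the 5-day library. Its log2(FPKM + 1) differences were 0.68 (SE 0.09, limma adjusted p = 0.0984) and 0.52 (limma adjusted p = 0.165).

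Msx2, a homeobox gene of BMP-responsive tissue, was at 0.835 and 0.704 FPKM in the ES libraries, 1.30 after LIF withdrawal and 0.189 in the 5-day library. The derived libraries thus lay on opposite sides of the ES pair. Its relative Msx1 did not follow it, at 0.244, 0.264, 0.581 and 0.599 FPKM, above both ES libraries in both. Twist1, a bHLH factor of mesenchyme, was at 1.06, 1.12, 0.941 and 0.930 FPKM, with ES 2, the highest, 1.2-fold over the 5-day library, the lowest.

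The other 9 mesoderm genes, Msx1 among them, were under 1 FPKM throughout. Hand1, a bHLH factor of lateral mesoderm, and Foxf1, a forkhead factor of the same tissue, were highest after LIF withdrawal. Hand1 was at 0.205, 0.186, 0.530 and 0.251 FPKM, and Foxf1 at 10, 6, 15 and 6 fragments. In contrast, the homeobox genes Isl1, of cardiac progenitors, and Meox1, of somites, were highest in the 5-day library and lowest after LIF withdrawal. Isl1 was at 0.120, 0.105, 0.0682 and 0.415 FPKM, and Meox1 had 8, 13, 3 and 19 fragments. The exact 95% Poisson interval of Foxf1 after LIF withdrawal overlapped those of all other libraries. So did that of Meox1 in the 5-day library, and these ranks were not resolved beyond counting error. The forkhead genes Foxc1 and Foxc2, of paraxial mesoderm and vessels, were lowest in the 5-day library, at 0.123 and 0.112 FPKM against ES values of 0.262 and 0.263 for Foxc1 and 0.402 and 0.265 for Foxc2. For Foxc2 the Poisson interval of the 5-day library lay below that of ES 1 and overlapped that of ES 2. Hand2, a bHLH factor of heart and limb, and Osr1, a zinc finger factor of kidney and heart progenitors, were listed at 0 in the 5-day library, where 3 fragments would be 0.0495 and 0.0571 FPKM. Foxf1 and Foxc2 lie inside the same-strand gene Gm20388, which was at 6.32 to 9.66 FPKM, so the assignment of fragments to them is uncertain.

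Markers of the fibroblast feeders mostly lay higher after LIF withdrawal and were split in direction in the 5-day library. Of 13 feeder markers tested, 4 rose and 0 fell after LIF withdrawal by limma, namely Dcn, Postn, Col5a2 and S100a4, and 12 lay above both ES libraries. Over all genes tested 7.32% were called higher, 0.357% lower, and 48.4% lay above both. In the 5-day library limma called 0 of the 13, beside 0.396% of all genes tested, with 7 at unadjusted p under 0.05, beside 27.7%. Of the 13, 5 lay above and 5 below both ES libraries there, beside 37.6% and 42.9%. The summed level of all 14 listed was 316 and 311 FPKM in the ES libraries, 462 after LIF withdrawal and 360.1 in the 5-day library. Lum, a defining proteoglycan gene of fibroblasts, was listed at 0 in ES 2 and was at 0.0160, 0.0564 and 0.493 FPKM in ES 1, LIF withdrawal and the 5-day library. Dcn, another such gene, was at 0.695, 0.664, 6.68 and 11.1 FPKM. Col5a2, a fibrillar collagen gene, was at 7.72, 7.64, 28.4 and 3.44 FPKM and so lowest in the 5-day library, and Fn1, the fibronectin gene, made up most of the sum at 240.1, 239.6, 265 and 283 FPKM. Pdgfra, Twist1, Foxf1, Osr1 and Hand2 are also known from fibroblasts, and the part of feeder RNA in their values was not tested.

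Endoderm genes gave 1 value at 1 FPKM or more. It was that of Sox7, a SOX factor of extraembryonic endoderm and endothelium, at 0.568 and 0.50 FPKM in the ES libraries, 0.507 after LIF withdrawal and 1.08 in the 5-day library. These were 59, 44, 30 and 94 fragments, with exact 95% Poisson intervals of 0.432 to 0.733, 0.363 to 0.671, 0.342 to 0.724 and 0.869 to 1.32 FPKM. The 5-day library was the highest, and Sox7 reached 1 FPKM in that library alone. These intervals hold counting error only, and the ES libraries differed from each other by more than that, with a chi-square per degree of freedom of 11.1 over 3733 single-transcript genes. The log2(FPKM + 1) difference from ES cells was 0.44 (SE 0.04, limma adjusted p = 0.139).

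The other extraembryonic endoderm factors were not highest in the 5-day library. Gata4, a GATA factor of endoderm and heart, was at 0.903, 0.519, 0.439 and 0.451 FPKM in ES 1, ES 2, LIF withdrawal and the 5-day library. Gata6, the GATA factor that specifies primitive endoderm, was at 0.498, 0.376, 0.630 and 0.213 FPKM, lowest in the 5-day library. Sox17, the SOX factor of definitive endoderm, was at 0.611, 0.341, 0.613 and 0.347 FPKM. For Sox17 the ES libraries stood about as far apart as the derived ones, and for Gata4 both derived libraries lay just under ES 2.

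The forkhead pioneer factors differed from each other. Foxa1 was at 0.190 and 0.153 FPKM in the ES libraries, 0.0175 after LIF withdrawal and 0.0356 in the 5-day library, which are an estimated 19.9, 13.6, 1.05 and 3.14 fragments. Foxa2 was at 0.102, 0.214, 0.107 and 0.322 FPKM and above its floor in every library. Genes of differentiated endoderm were near 0. Hnf4a, a nuclear receptor of visceral endoderm and liver, was listed at 0 in both derived libraries, and its ES values were 0.0287 and 0.00846 FPKM, on either side of the floor. Afp, the alpha-fetoprotein gene, was at 0.124 FPKM in ES 1, an estimated 13.2 fragments, and listed at 0 in ES 2. Ttr, which encodes transthyretin, had 1 fragment in ES 1 and 0 in the other 3 libraries, so 3 fragments would be 0.0916 to 0.165 FPKM.

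Of the blood genes, Runx1, the RUNX factor of definitive blood stem cells, had the highest level of the 4 in every library. It was at 2.24, 2.46, 3.96 and 1.71 FPKM in ES 1, ES 2, LIF withdrawal and the 5-day library. LIF withdrawal lay above and the 5-day library below both ES libraries, with log2(FPKM + 1) differences of 0.57 and -0.31 (limma adjusted p = 0.0982 and 0.207). Gata2, a GATA factor of blood progenitors, was at 1.18, 0.672, 1.29 and 0.940 FPKM, and the 5-day value lay between the ES values. Tal1, a bHLH factor that starts blood formation, was at 1.02, 0.890, 0.522 and 0.425 FPKM, with both derived libraries below both ES libraries (log2(FPKM + 1) differences -0.36 and -0.46, limma adjusted p = 0.119 and 0.149).

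Gata1, the GATA factor of red cells and megakaryocytes, had no fragment in either ES library and was at 0.747 FPKM after LIF withdrawal and 0.173 in the 5-day library. An estimated 31.7 and 10.9 fragments were thus counted in the derived libraries. LIF withdrawal was at 15.8-fold and the 5-day library at 3.66-fold the larger of the ES floors of 3 fragments per library. These ratios set 1 value against a floor and are no lower bounds. Gata1 never reached 1 FPKM and was outside the main test. With no filter on low values its log2(FPKM + 1) differences were 0.81 and 0.23 (limma adjusted p = 0.00429 and 0.0354), both under the size threshold. A gene at 0 in both ES libraries shows no spread there, so these p-values rest on spread borrowed from other genes.

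In the heart list Nppa and Nkx2-5 were near 0 outside 1 library. Nppa, the atrial natriuretic peptide gene, had 0 fragments in both ES libraries, 14 after LIF withdrawal and 1 in the 5-day library. After LIF withdrawal this was 1.17 FPKM (exact 95% Poisson interval 0.637 to 1.96), or 7.30-fold the larger of the ES floors of 3 fragments per library. That ratio is no lower bound. The upper 95% limits for 0 fragments were 0.168 FPKM in ES 1 and 0.196 in ES 2. Nppa was the 1 gene of the list that limma called, with a log2(FPKM + 1) difference of 1.11 (adjusted p = 0.00307), again with no spread of its own in the ES pair. It lies on chromosome 4 from 148000722 to 148002079 on the plus strand, and exons of Gm13054, on the opposite strand, cover 61.5% of its exon length. Gm13054 was at 0.392, 0.228, 0.987 and 0.639 FPKM in ES 1, ES 2, LIF withdrawal and the 5-day library, also highest after LIF withdrawal. The labels do not say whether counting used strand, so reads of the pair cannot be told apart. Nkx2-5, a homeobox factor of cardiac progenitors, was at an estimated 1.15, 1.15, 0 and 2.30 fragments, under the floor everywhere.

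The question put to both derived libraries was whether lineage regulators differed from ES cells. Only the 12 genes at 1 FPKM or more in some library entered the limma fit over 15676 genes, and a gene that passes through the library where it is high will tend to differ there. After LIF withdrawal 1 of the 12 was called (adjusted p under 0.05 and a log2 difference of at least 1), beside 7.67% of all genes tested (7.32% higher and 0.357% lower). In the 5-day library 0 of the 12 were called, beside 0.396% of all genes. Among all genes called, 680 of 1203 after LIF withdrawal and 60 of 62 in the 5-day library were listed at 0 in both ES libraries. Of the 12 only Nppa was. The call was thus hardly within reach of the others in the 5-day library, and these shares are a weak yardstick for them. At unadjusted p under 0.05 stood 8 of the 12 after LIF withdrawal, beside 37.2% of all genes tested, and 7 of the 12 in the 5-day library, beside 27.7%. Of the 12, 6 lay above and 4 below both ES libraries after LIF withdrawal at any size, beside 48.4% and 36.6% of all genes tested, and 5 above and 6 below in the 5-day library, beside 37.6% and 42.9%. With 0.1 added in place of 1, the differences of Pdgfra (1.28), Tbx20 and Nppa (3.66) after LIF withdrawal passed 1 in size, and so did those of T, Fgf8 (1.92), Msx2 (-1.58), Pdgfra (1.03) and Tal1 (-1.004) in the 5-day library, of which limma called Nppa alone. With no filter all 41 entered the fit. Then limma called 1 after LIF withdrawal and 0 in the 5-day library, beside 4.61% and 0.527% of 26187 genes, with 17 and 14 of the 41 at unadjusted p under 0.05, beside 36.6% and 27.6% of those genes. At adjusted p under 0.05 and any size stood Gsc, Hand1, Msx1, Gata1 and Nppa after LIF withdrawal, beside 17% of genes, and Foxc1 and Gata1 in the 5-day library, beside 5.09%. For Gsc the exact 95% Poisson intervals of LIF withdrawal and the ES libraries overlap, at 5 fragments against 2 and 2. For Foxc1 the ES values were nearly equal, at 0.262 and 0.263 FPKM, and that pair alone gives the gene its measured spread.

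By size without a test, genes had to be 2-fold or more from both ES libraries in FPKM, with the higher side at 1 FPKM or more. Pdgfra and Nppa were higher and Tbx20 lower after LIF withdrawal, 3 of the 12 that could pass, beside 14% of the genes tested (12.3% higher and 1.76% lower). Fgf8 was higher and T lower in the 5-day library, 2 of the 12, beside 5.6% (3.58% higher and 2.02% lower). Nppa after LIF withdrawal and Fgf8 in the 5-day library entered the 12 only through the library where they were higher. Pdgfra entered only through the derived libraries and T only through the ES libraries. The filter thus partly fixed these directions. Where the higher side had only to exceed the floor, 8 were higher and 2 lower after LIF withdrawal, beside 17.4% and 4.7% (22.1% in all) of 22593 genes above the floor in some library, as were 37 of the 41. In the 5-day library 7 were higher and 7 lower by that rule, beside 8.97% and 5.07% (14% in all). The 7 lower were T, Msx2, Osr1, Foxc1, Foxc2, Foxa1 and Tal1, and the 7 higher were Gsc, Evx1, Fgf8, Lhx1, Msx1, Isl1 and Gata1. Several of these held few fragments, such as Gsc with 4 in the 5-day library. The part of counting error in these numbers of genes was not tested.

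**Figure D3:**
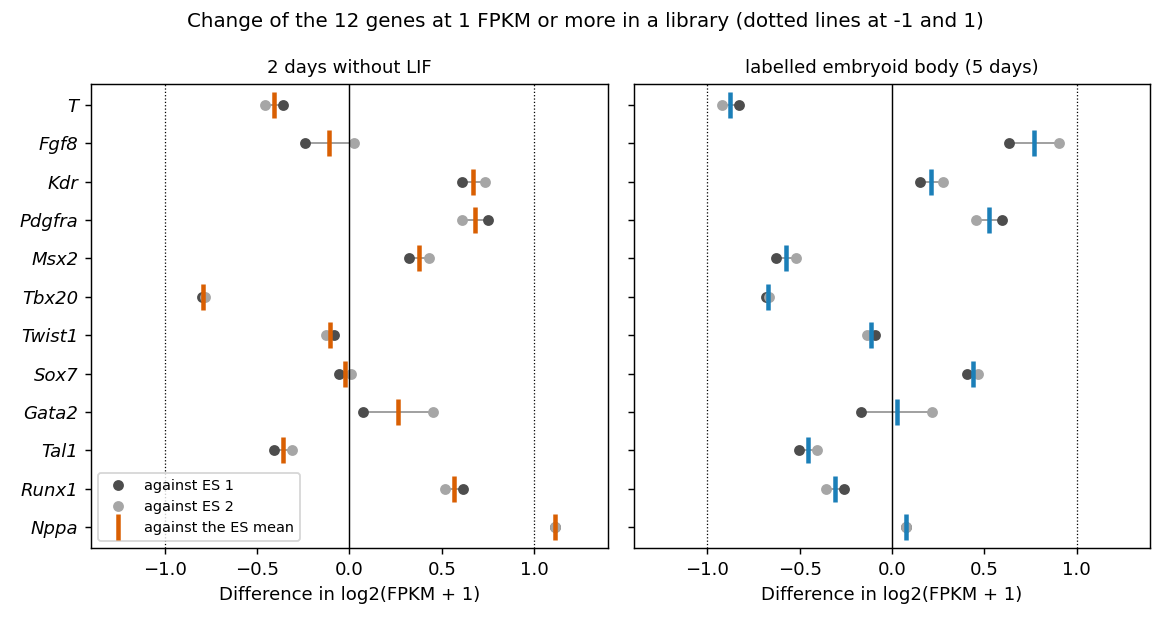
Difference in log2(FPKM + 1) between each derived library and ES 1 (dark circles), ES 2 (light circles) and their mean (vertical bars) for the 12 genes at 1 FPKM or more in some library. Only Nppa after LIF withdrawal, at 1.11, lies beyond the dotted lines at -1 and 1.

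The derived libraries were also set against each other, without a test since each is 1 library. They share the ES controls of the comparisons above. Of 9 genes at 1 FPKM or more in either, Fgf8 (7.66-fold) and Sox7 (2.12-fold) were higher in the 5-day library, and Nppa (21.6-fold, from 14 fragments against 1), Msx2 (6.87-fold) and Runx1 (2.32-fold) after LIF withdrawal. These are 5 genes 2-fold or more apart, beside 22.3% of 15276 genes (7.83% higher in the 5-day library and 14.4% after LIF withdrawal). Below 1 FPKM, among genes picked after their values were seen, T was 4.39-fold and Foxf1 3.71-fold higher after LIF withdrawal, and Isl1 6.08-fold and Meox1 4.26-fold higher in the 5-day library. For Foxf1 and Meox1 the exact 95% Poisson intervals of the derived libraries overlap.

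The ES libraries set the spread for all of this. Of the 41 genes, 8 were more than 2-fold apart between them (Fgf8, Lhx1, Hand2, Osr1, Foxa2, Hnf4a, Afp and Ttr), and none of the 8 reached 1 FPKM in an ES library. Of the 12 that entered the fit only Fgf8 was among them, beside 8.32% of the 15676 genes.

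Other genes of the same lineages were read from lists of 14 streak, 20 mesoderm, 18 endoderm, 17 blood and endothelium, and 16 heart genes, of which 9, 9, 9, 5 and 4 reached 1 FPKM in some library. After LIF withdrawal limma called 2 of the 9 streak genes tested, beside 7.67% of all genes tested. Eomes, a T-box factor of mesendoderm, rose from 1.31 and 1.32 to 3.72 FPKM (adjusted p = 0.0285), and Sp5, a WNT target, fell from 2.88 and 2.93 to 0.946 FPKM (adjusted p = 0.0297). In the endoderm list Rbp4, the retinol carrier, rose from 0.788 and 0.775 to 3.09 FPKM (adjusted p = 0.0167). No gene of the other 3 lists was called after LIF withdrawal and none of any list in the 5-day library, beside 0.396% of all genes tested there. At unadjusted p under 0.05 stood 6, 5, 3, 4 and 0 of the 5 lists after LIF withdrawal, beside 37.2% of all genes tested, and 5, 5, 5, 2 and 0 in the 5-day library, beside 27.7%.

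Some of the most abundant of the other genes are also known from undifferentiated ES cells. Tcf15, a bHLH factor of somites and of primed ES cells, was at 90.5, 81.8, 110.1 and 69.4 FPKM in ES 1, ES 2, LIF withdrawal and the 5-day library. Tbx3, a T-box factor of limb and of naive pluripotency, was at 15.8, 15.8, 26.7 and 34.2 FPKM. Pecam1, an endothelial adhesion gene also made by ES cells, was at 8.69, 8.76, 12.8 and 15.8 FPKM, and Tek, an endothelial receptor gene, at 6.40, 6.55, 3.90 and 7.71. Hopx and Myl4, of the heart list, reached 4.48 and 3.11 FPKM. The basement membrane genes Lamb1 and Col4a1 had the highest means of the endoderm list, at 25.6 to 39.1 and 12.5 to 21.3 FPKM, and Tdgf1 (a NODAL co-receptor) and Nodal itself those of the streak list in the 5-day library, at 269 and 13.4 FPKM there. Msgn1, Gfi1b, Hbb-bh1 and Myl2, named after their values were seen, were listed at 0 in all 4 libraries. Median log2(FPKM + 1) differences after LIF withdrawal were -0.10 for the streak list, 0.49 for mesoderm, 0.11 for endoderm, -0.04 for blood and endothelium and 0.26 for heart, beside 0.04 over all genes tested. In the 5-day library they were -0.07, 0.34, -0.13, 0.22 and 0.33, beside -0.01. The neuroectoderm markers had 1 fall of 4 tested after LIF withdrawal by limma, beside 0.357% of all genes tested called lower. The trophoblast markers had 0 calls of 3, beside 7.67% called in either direction. At unadjusted p under 0.05 stood 2 of the 4 and 2 of the 3, beside 37.2%. Neither list had a limma call in the 5-day library, beside 0.396%. At unadjusted p under 0.05 stood 4 of the 4 and 2 of the 3 there, beside 27.7%.

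Promoter sequence was compared with detection because genes listed at 0 and genes merely low could not be separated by level alone. RefSeq promoter windows on GRCm38.p6, from 250 bases before to 50 after a transcript start, matched 29 of the 41 genes. CpG dinucleotides, which read the same on both strands, numbered 17 at the median over the 29, 14 over 16381 protein-coding genes and 7 over all 27018 genes with a window. Of the 29, 19 windows held 10 or more CpGs, a share of 65.5% beside 59.6% of protein-coding windows. Only Hand2 of these 19 was listed at 0 in any library. Of the 10 windows with fewer than 10 CpGs, 7 belonged to genes listed at 0 in at least 1 library, namely Gata1, Afp, Hnf4a, Nkx2-5, Nppa, Cer1 and Mesp1. Protein-coding genes at large were divided the same way, with 5.16% of 9758 CpG-richer and 65.5% of 6623 CpG-poorer genes listed at 0 in at least 1 library. The limit of 10 was chosen after the counts were seen. The windows of Gata1 and Nkx2-5 lie 10161 and 3444 bases from the annotated 5′ end, and without them 5 of 8 CpG-poor windows belonged to genes listed at 0. The other 3 CpG-poor windows were those of Runx1, Pdgfra and Tbx6, and Runx1 had both the fewest CpGs of the 29, 2, and the highest level. Runx1 is known to have another, downstream promoter, which this window does not hold.

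The windows below contrast CpG-rich regulators that were detected in every library, T and Tbx20, with CpG-poor genes listed at 0 in 2 or more libraries, Nppa, Cer1 and Afp. Capitals mark each CpG.
T (chr17:8434173-8434472, plus strand): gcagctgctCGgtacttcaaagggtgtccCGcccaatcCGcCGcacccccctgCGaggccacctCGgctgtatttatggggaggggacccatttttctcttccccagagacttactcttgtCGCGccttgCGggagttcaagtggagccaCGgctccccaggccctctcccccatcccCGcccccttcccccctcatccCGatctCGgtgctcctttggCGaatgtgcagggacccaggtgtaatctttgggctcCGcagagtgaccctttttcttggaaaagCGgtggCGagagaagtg
Tbx20 (chr9:24774254-24774553, minus strand): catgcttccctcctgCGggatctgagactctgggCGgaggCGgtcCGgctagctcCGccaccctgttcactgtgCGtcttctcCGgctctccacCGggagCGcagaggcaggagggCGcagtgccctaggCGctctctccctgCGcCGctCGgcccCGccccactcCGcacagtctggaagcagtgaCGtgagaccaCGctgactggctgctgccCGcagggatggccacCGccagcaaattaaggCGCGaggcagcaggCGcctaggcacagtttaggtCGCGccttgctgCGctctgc
Nppa (chr4:148000472-148000771, plus strand): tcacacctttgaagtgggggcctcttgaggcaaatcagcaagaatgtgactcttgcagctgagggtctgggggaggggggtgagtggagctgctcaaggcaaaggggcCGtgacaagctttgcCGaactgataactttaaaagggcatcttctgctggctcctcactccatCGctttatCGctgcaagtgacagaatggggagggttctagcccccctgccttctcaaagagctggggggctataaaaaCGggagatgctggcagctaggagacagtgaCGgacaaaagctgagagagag
Cer1 (chr4:82885102-82885401, minus strand): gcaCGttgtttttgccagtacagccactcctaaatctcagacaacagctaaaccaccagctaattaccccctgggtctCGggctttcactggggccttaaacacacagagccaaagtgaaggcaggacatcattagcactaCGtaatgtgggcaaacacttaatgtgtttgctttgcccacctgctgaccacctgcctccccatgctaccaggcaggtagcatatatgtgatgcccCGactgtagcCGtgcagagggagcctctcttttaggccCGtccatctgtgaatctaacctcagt
Afp (chr5:90490464-90490763, plus strand): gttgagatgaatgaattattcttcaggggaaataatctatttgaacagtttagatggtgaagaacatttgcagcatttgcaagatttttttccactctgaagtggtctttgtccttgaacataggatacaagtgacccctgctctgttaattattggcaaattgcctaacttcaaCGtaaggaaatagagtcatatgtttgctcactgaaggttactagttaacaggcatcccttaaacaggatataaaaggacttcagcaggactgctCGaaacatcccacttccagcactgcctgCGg
T and Tbx20 hold 17 and 26 CpGs, and Nppa, Cer1 and Afp 6, 6 and 3. The letters TATAAA, on either strand, occur in the Nppa and Afp windows and in those of Twist1, Gsc and Tbx6, 5 of 29, beside 14.2% of all windows. A match describes the letters only.

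**Figure D4:**
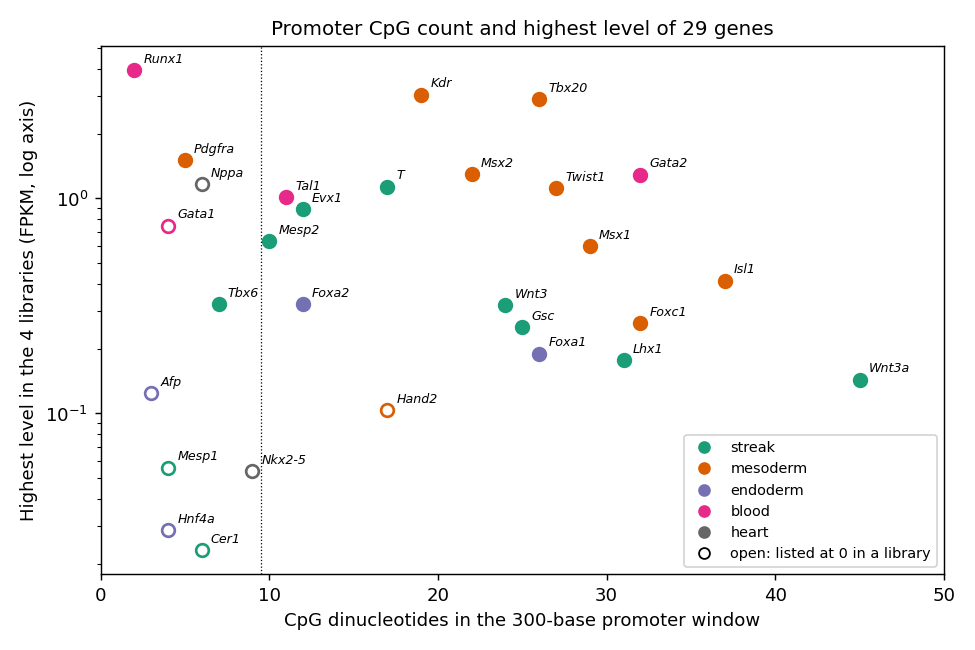
CpG dinucleotides in the promoter window (x axis) against the highest FPKM over the 4 libraries (y axis, log scale) for the 29 genes with a window, coloured by lineage. Open circles are listed at 0 in at least 1 library, and 7 of these 8 lie left of the dotted line between 9 and 10 CpGs.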

How the data were processed

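Levels are in FPKM, as the authors deposited them for every gene. Per the submitters' processing notes, Trimmomatic 0.36, STAR, Cufflinks and mm10 were used, with roles, options and annotation not stated there. Identifiers were matched without version to GENCODE mouse release 21 (47219 of 47633, with 82.1% of versions equal). Members, lists and the strand-clear set (genes overlapping no opposite-strand gene, at least 1000 nt of exons) were chosen with earlier results of these data known. All 41 members are accounted for, and of the other lists the called genes, or else the 2 most abundant, are named.

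Genes at 1 FPKM or more in a library were fitted with limma 3.58.1 in R 4.3.3 on log2(FPKM + 1), with a trend, and Benjamini-Hochberg adjustment over all genes. The 4 libraries shared 1 residual degree of freedom from the ES pair, so each lone library was assumed to vary like ES cells. The fit was tested on simulated data, where it recovered planted changes at a small spread between libraries and none at the spread of the ES pair over all genes, so an absent call carries little weight. Depth and a length correction were fitted to single-transcript genes of 500 to 15000 nt, where 95.3% to 96.1% of values up to 20 fragments lay within 0.1 of a whole number. Of the 41 genes 16 have a single transcript, and for 13 all 4 values were whole. Other fragment numbers are estimates from the union of exons. Promoter windows are those of the RefSeq start nearest the GENCODE 5′ end. Other steps ran in Python 3.11.15 with scipy 1.17.1 and pandas 2.3.3. No filter, other pseudocounts, scaling, gene sets and floors were tried as alternatives.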

Additional observations from a re-analysis of the deposited data

Results flagged for a closer look

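Msx2 and Runx1 lay on opposite sides of both ES libraries in the derived cultures, higher after LIF withdrawal and lower in the 5-day library. LIF withdrawal exceeded the 5-day library 6.87-fold for Msx2 and 2.32-fold for Runx1. The difference was not tested, since each culture is 1 library.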

How the results depend on the processing

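The single call after LIF withdrawal, Nppa, went to 0 calls with a filter on the mean (0.5 FPKM or more) and in the strand-clear set, neither of which holds the gene. There was 1 call under the other 4 fitted alternatives, and the 0 calls in the 5-day library held under all 6. Over all genes 1203 calls after LIF withdrawal became 792 with the mean filter and 207 in the strand-clear set. The 62 calls of the 5-day library became 131 with a pseudocount of 0.1, 138 with no filter, 157 in the strand-clear set, and 0 with the mean filter and without the trend. In the strand-clear set, which held 9 members, limma adjusted p was 0.0335 for T, 0.0383 for Tbx20 and 0.0488 for Msx2 in the 5-day library, and 0.0244 for Tbx20 and 0.0350 for Kdr after LIF withdrawal, each under the size threshold, beside 14.3% and 22% of its genes at adjusted p under 0.05. By the 2-fold size rule, 3 genes after LIF withdrawal became 1 at 3-fold, 10 with the floor as minimum, and 3 to 5 without 1 ES library. The 2 of the 5-day library became 14 with the floor as minimum and 3 to 5 without 1 ES library. The highest count, 5, came without ES 1 after LIF withdrawal and without ES 2 in the 5-day library. At 0.5 FPKM in place of 1, 11, 11, 17 and 11 of the 41 were counted in ES 1, ES 2, LIF withdrawal and the 5-day library, and at 2 FPKM 2, 2, 2 and 0. With a floor of 10 fragments, 18 after LIF withdrawal and 17 in the 5-day library were at or under it. Without 1 ES library, log2 differences after LIF withdrawal ran from -0.24 to 0.025 for Fgf8 and from -0.057 to 0.0067 for Sox7, positive without ES 1, and that of Gata2 in the 5-day library from -0.17 to 0.21, negative without ES 2. Fits without 1 ES library leave no residual degree of freedom and gave no calls to count. The length correction of depth, and scaling of the derived comparison, were added after seeing the data. No paired analysis was possible because the derived groups hold 1 library each and share no second replicate number with ES cells. The shallower LIF library has the highest floors, up to 0.250 FPKM for Nppa, so genes there under their own floor could be missed.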
